A study of Mus musculus with 9 samples.

Results

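Complex I, the NADH dehydrogenase that feeds electrons into the respiratory chain, is built from subunits of both the nuclear and the mitochondrial genome. The 7 mouse genes of its mitochondrially encoded subunits, mt-Nd1, mt-Nd2, mt-Nd3, mt-Nd4, mt-Nd4l, mt-Nd5 and mt-Nd6, are described here. They were taken by name from the rows of the count table that lie on the mitochondrial chromosome. They are 7 of its 13 mitochondrially encoded genes and 7 of the 21959 genes in all. RNA was measured by sequencing total RNA of DC2.4, an immortalised dendritic cell line of the mouse. The 9 libraries comprise 3 of OMVSSDC, 3 of ZJDC and 3 of PBSDC. The study's description names engineered vesicles given to DC2.4 cells, with immune-related genes as its interest. The labels explain neither OMVSS nor ZJ, and give no dose and no time. PBSDC was taken as the baseline because PBS usually stands for phosphate-buffered saline. The labels do not tell whether replicates are separate cultures, and p-values therefore measure only the spread between these libraries, which may be technical.

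The 7 proteins form the membrane arm of complex I. The subunits encoded by mt-Nd2, mt-Nd4 and mt-Nd5 resemble antiporters and make up most of the proton-pumping part. The mt-Nd1 product sits at the heel of the arm, where ubiquinone enters, and the products of mt-Nd3, mt-Nd4l and mt-Nd6 lie between it and the antiporter-like subunits. Mitochondrial DNA is transcribed on both strands into long precursors, which are cut mostly at transfer RNAs. Of the protein genes only mt-Nd6 is read from the strand opposite to the others, and mt-Nd4l and mt-Nd4 are known to stay together on a shared messenger RNA.

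In the table's coordinates mt-Nd1 runs from base 2751 to 3707 of the mitochondrial chromosome, mt-Nd2 from 3914 to 4951 and mt-Nd3 from 9459 to 9806. The next genes are mt-Nd4l at 9877 to 10173, mt-Nd4 at 10167 to 11544 and mt-Nd5 at 11742 to 13565. These lie on the plus strand, and mt-Nd6 at 13552 to 14070 lies on the minus strand. Their identifiers, in the order of their numbers, are ENSMUSG00000064341, ENSMUSG00000064345, ENSMUSG00000064360, ENSMUSG00000064363, ENSMUSG00000065947 (mt-Nd4l), ENSMUSG00000064367 and ENSMUSG00000064368. The genes have no introns, and the table's lengths, 297 bases for mt-Nd4l to 1824 for mt-Nd5, equal those of the GENCODE transcripts on GRCm38, matched by gene identifier. The ends of 2 neighbouring pairs are shown because reads there belong to both genes. Capitals mark the 7 bases that mt-Nd4l and mt-Nd4 share on the plus strand, and the 14 bases that mt-Nd5 and mt-Nd6 share on opposite strands, each read 5′ to 3′ along its own gene.
mt-Nd4l, last 60 bases: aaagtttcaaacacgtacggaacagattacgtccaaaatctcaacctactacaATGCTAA
mt-Nd4, first 60 bases: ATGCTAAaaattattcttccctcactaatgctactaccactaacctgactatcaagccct
mt-Nd5, last 60 bases: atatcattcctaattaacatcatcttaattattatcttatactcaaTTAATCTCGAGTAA
mt-Nd6, last 60 bases: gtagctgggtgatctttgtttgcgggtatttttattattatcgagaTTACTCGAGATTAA
The strands differ in composition as well. The mt-Nd6 transcript holds 28.1% G and 5.97% C, whereas the other 6 genes hold 8% to 11.6% G and 22.1% to 30.0% C.

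Some members have near-identical copies in the nuclear genome, and a read from such a stretch matches in more than 1 place. Of the 100-base windows of each gene, the share with an exact match in an annotated nuclear transcript of GRCm38 was 97.6% for mt-Nd3 (243 of 249 windows), 98.5% for mt-Nd4l (195 of 198) and 60.8% for mt-Nd4 (777 of 1279). It was 3.19% for mt-Nd2 and 0% for mt-Nd1, mt-Nd5 and mt-Nd6. The copies of mt-Nd3, mt-Nd4l and mt-Nd4 are Gm28438, Gm10222 and Gm28439, unprocessed pseudogenes next to each other on the minus strand of chromosome 1, the first at chr1:24612775-24613119. None of the 3 copies has a row in the table, so they were not analysed here. The mt-Nd3 copy is shown for its closeness: over 345 aligned bases it differs by 1 substitution, T3C, counted from 1 at the first base of mt-Nd3, with the base of mt-Nd3 first. Capitals mark that position in the first 300 bases of both.
mt-Nd3: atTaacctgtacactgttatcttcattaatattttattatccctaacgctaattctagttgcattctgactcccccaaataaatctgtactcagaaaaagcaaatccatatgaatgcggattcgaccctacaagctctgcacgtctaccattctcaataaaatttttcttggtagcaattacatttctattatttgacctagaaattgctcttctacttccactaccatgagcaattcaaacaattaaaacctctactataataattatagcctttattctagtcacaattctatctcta
Gm28438: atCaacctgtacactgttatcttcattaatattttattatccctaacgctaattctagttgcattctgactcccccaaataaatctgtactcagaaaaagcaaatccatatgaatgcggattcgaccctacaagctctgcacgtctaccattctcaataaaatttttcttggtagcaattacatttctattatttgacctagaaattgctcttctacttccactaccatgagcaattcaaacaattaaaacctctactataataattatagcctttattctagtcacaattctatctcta
The copy of mt-Nd4l is identical over 294 aligned bases and that of mt-Nd4 over 876.

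Each library held between 12784931 and 18388959 counts. Levels are given in CPM, the counts of a gene per 1e6 counts of its library. Where a gene has no count, a true value of 3 counts remains possible, equal to 0.163 to 0.235 CPM, for counting error only. The 3 OMVSSDC libraries did not form a tight group: OMVSSDC replicates 1 and 2 stood apart from replicate 3 on the second principal component, which held 14.6% of the variance, at -29.73 and -26.93 against 21.09. Ribosomal protein genes took 4.10% of OMVSSDC replicate 1, 4.01% of replicate 2 and 2.81% of replicate 3, beside 2.75% to 2.97% in ZJDC and 2.57% to 2.60% in PBSDC, and the part of this in the results below was not tested. Comparisons of the members with OMVSSDC are therefore also given without replicates 1 and 2 together, and without replicate 3, and other genes where leaving out replicates 1 and 2 moves the value by over 1.5 times. Of the lineage markers, Ptprc, Spi1 and Csf1r had at least 3715 counts in every library. Several dendritic cell markers were low, with 0 to 4 counts of Flt3, 0 to 7 of H2-Ab1 and 23 to 80 of Itgax per library. Zbtb46 had 39 to 167 counts and Irf8 1960 to 3498, so the list was not low throughout. The summed level of 14 dendritic and myeloid markers was 6130 to 6710 CPM in OMVSSDC and 6270 to 6390 CPM in ZJDC, against 5040 to 5150 CPM in PBSDC. The markers of this list did not move together. Cybb was counted 30492, 39686 and 36686 times in OMVSSDC and 43307, 30493 and 42782 in ZJDC, against 22820, 19406 and 18743 in PBSDC. Csf1r was lower, at 8188, 10344 and 7754 in OMVSSDC and 9596, 7087 and 10543 in ZJDC, against 18561, 17102 and 15414 in PBSDC. Spi1 and Itgam were also counted less in every OMVSSDC and ZJDC library than in any PBSDC library. Epithelial and lymphoid markers summed to at most 0.49 and 0.92 CPM in any library. Granulocyte and erythroid markers summed to 10.1 CPM in OMVSSDC replicate 1 and to at most 1.63 CPM in any other library. Fibroblast and endothelial markers summed to 10.8 to 27.6 CPM. Of these, Col1a1 gave 3, 1 and 52 counts in OMVSSDC and 21, 53 and 22 in ZJDC, against 54, 26 and 27 in PBSDC. Col3a1 gave 0, 0 and 99, then 33, 46 and 29, then 51, 14 and 43 in the same order of groups. Pdgfra gave 88, 94 and 102, then 99, 53 and 99, then 36, 39 and 43. Pecam1 gave 33, 62 and 87, then 77, 46 and 86, then 261, 218 and 212. Cdh5 gave 24, 25 and 34, then 44, 27 and 42, then 89, 70 and 59.

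The 7 genes together took a much smaller share of the library in OMVSSDC and ZJDC than in PBSDC. They held 0.271%, 0.285% and 0.906% of all counts in OMVSSDC replicates 1 to 3 and 1.499%, 1.33% and 1.12% in ZJDC, against 3.78%, 3.43% and 3.30% in PBSDC. The groups did not overlap, and OMVSSDC replicate 3 lay nearer to ZJDC than to the other OMVSSDC libraries. In bulk RNA a lower share cannot be divided between fewer cells that carry the transcripts and less of them per cell.

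Nearly all of these counts came from mt-Nd1, mt-Nd2, mt-Nd4, mt-Nd5 and mt-Nd6, called the 5 well-counted members below, since mt-Nd3 and mt-Nd4l had at most 35 counts in any library. Their CPM below are after scaling by trimmed means (TMM). For mt-Nd1 they were 343, 370.2 and 1020 CPM in OMVSSDC and 1910, 1659 and 1443 CPM in ZJDC, against 9321, 8774 and 8253 CPM in PBSDC. For mt-Nd2 they were 367.7, 389.6 and 1400 CPM in OMVSSDC and 2440, 2139 and 1790 CPM in ZJDC, against 10120, 8817 and 8822 CPM in PBSDC. In both genes every OMVSSDC library was below every ZJDC library, and every ZJDC library far below PBSDC.

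The other antiporter-like subunit genes, mt-Nd4 and mt-Nd5, kept the same order of groups but with smaller fold differences from PBSDC. The level of mt-Nd4 was 448.6, 450.3 and 1184 CPM in OMVSSDC and 2268, 1997 and 1724 CPM in ZJDC, against 6136, 5427 and 5459 CPM in PBSDC. For mt-Nd5, the most counted member, it was 1268, 1326 and 4799 CPM in OMVSSDC and 7622, 6623 and 5426 CPM in ZJDC, against 12550, 11650 and 10560 CPM in PBSDC. Its OMVSSDC replicate 3 came close to the lowest ZJDC library. The opposite-strand gene mt-Nd6 had 124.7, 139.6 and 615.1 CPM in OMVSSDC and 923.9, 845.8 and 720.5 CPM in ZJDC, against 1519, 1236 and 1303 CPM in PBSDC. None of the 5 genes overlapped between any pair of groups.

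The remaining pair, whose reads have nuclear matches almost throughout, was near the floor. Counts of mt-Nd3 were 1, 9 and 4 in OMVSSDC and 7, 6 and 10 in ZJDC, against 34, 26 and 19 in PBSDC. Those of mt-Nd4l were 3, 4 and 5 in OMVSSDC and 6, 9 and 8 in ZJDC, against 15, 35 and 22 in PBSDC. Both genes passed the filter on low counts only through the PBSDC libraries, where they are highest, so their calls are given as values and are not counted with the other members. Although mt-Nd4l shares a messenger with mt-Nd4, it had 3 counts in OMVSSDC replicate 1 where mt-Nd4 had 6218.

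**Figure D1:**
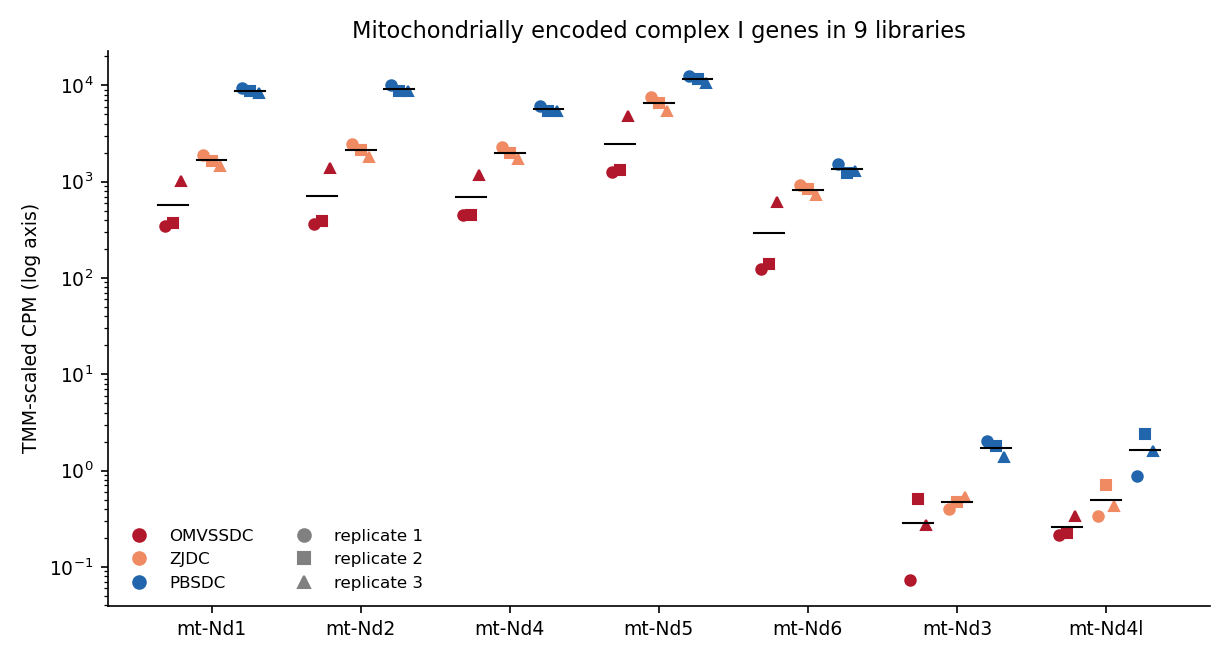
TMM-scaled CPM (log axis) of the 7 genes in every library; point shapes are replicates, colours are groups and black lines are group means of 3 libraries. In the 5 well-counted genes OMVSSDC lies below ZJDC and ZJDC below PBSDC, and OMVSSDC replicate 3 lies well above replicates 1 and 2.

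In OMVSSDC all 5 well-counted members fell relative to PBSDC. The largest difference was that of mt-Nd1, which averaged 577.8 ± 383.4 CPM in OMVSSDC and 8782 ± 534.2 CPM in PBSDC (SD, n = 3 each), 15.2-fold lower, at -3.93 ± 0.39 (SE) on the log2 scale (adjusted p = 1.19e-05, edgeR's quasi-likelihood test, Benjamini-Hochberg over 11568 genes). The smallest was that of mt-Nd6, which averaged 293.2 ± 278.9 CPM in OMVSSDC and 1353 ± 148.2 CPM in PBSDC, 4.62-fold lower, at -2.21 ± 0.52 on the log2 scale (adjusted p = 0.00379). Between them stood mt-Nd2 (-3.69 ± 0.47, adjusted p = 7.57e-05), mt-Nd4 (-3.03 ± 0.34, adjusted p = 3.23e-05) and mt-Nd5 (-2.23 ± 0.45, adjusted p = 0.00151). Among all tested genes, mt-Nd1 was the 7th and mt-Nd2 the 12th lowest by log2 fold change, mt-Nd4 the 29th, mt-Nd5 the 70th and mt-Nd6 the 73rd.

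This count stands against a wide background: 30.2% of all tested genes were called lower and 33.4% higher in OMVSSDC, and 31.8% had every OMVSSDC library below every PBSDC library. The low-count genes mt-Nd3 (log2 fold change -2.51 ± 0.42) and mt-Nd4l (-2.60 ± 0.49) were also called, with adjusted p of 0.000493 and 0.00101. The size of the difference depended on which OMVSSDC libraries were used. With replicate 3 as the only OMVSSDC library, assumed to vary like the other groups, the 5 genes were still called, at log2 fold changes of -3.11 for mt-Nd1, -2.73 for mt-Nd2, -2.27 for mt-Nd4, -1.28 for mt-Nd5 and -1.14 for mt-Nd6. With only replicates 1 and 2 the values were -4.62, -4.61, -3.66, -3.16 and -3.35 in the same order of genes.

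In ZJDC, mt-Nd1, mt-Nd2 and mt-Nd4 fell relative to PBSDC, and mt-Nd5 and mt-Nd6 did not pass the test. The mt-Nd1 level averaged 1671 ± 233.3 CPM in ZJDC and 8782 ± 534.2 CPM in PBSDC (SD, n = 3 each), at -2.39 ± 0.36 on the log2 scale (adjusted p = 0.000312, same edgeR test). For mt-Nd2 it was 2123 ± 325.4 CPM in ZJDC and 9253 ± 749.4 CPM in PBSDC (-2.12 ± 0.44, adjusted p = 0.00238), and for mt-Nd4 1996 ± 272 CPM in ZJDC and 5674 ± 400.1 CPM in PBSDC (-1.51 ± 0.33, adjusted p = 0.00292). These 3 of the 5 well-counted genes were called, beside 27.1% of all tested genes called lower and 27.6% called higher in ZJDC.

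The other well-counted genes differed by less. The level of mt-Nd5 was 6557 ± 1099 CPM in ZJDC and 11590 ± 994.3 CPM in PBSDC, a difference of -0.82 ± 0.43 in log2 (adjusted p = 0.131), and that of mt-Nd6 was 830.1 ± 102.6 CPM in ZJDC and 1353 ± 148.2 CPM in PBSDC, -0.70 ± 0.50 (adjusted p = 0.252). Neither gene overlapped between the groups, as was so for 36.0% of all tested genes in this direction. The spread used in the test includes that of the OMVSSDC libraries. Fitted to ZJDC and PBSDC alone, the values were -0.81 for mt-Nd5 (adjusted p = 0.00733) and -0.70 for mt-Nd6 (adjusted p = 0.00643), and both passed. In that fit 3979 of 11398 tested genes were called lower and 4030 higher. Both genes also passed without OMVSSDC replicate 3 (adjusted p = 0.00272 and 0.00309), where 4099 of 11761 tested genes were called lower and 4143 higher. The low-count genes mt-Nd3 (-1.87 ± 0.39, adjusted p = 0.00222) and mt-Nd4l (-1.75 ± 0.43, adjusted p = 0.00633) were called.

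Set directly against ZJDC, OMVSSDC had lower values of all 5 well-counted genes. The log2 fold changes were -1.53 ± 0.35 for mt-Nd1, -1.56 ± 0.44 for mt-Nd2, -1.52 ± 0.33 for mt-Nd4, -1.41 ± 0.44 for mt-Nd5 and -1.50 ± 0.51 for mt-Nd6. Only mt-Nd4 passed, with an adjusted p of 0.049; the others had adjusted p of 0.0562, 0.0744, 0.085 and 0.0961 in the same order of genes. Of all tested genes 1.10% were called lower and 0.856% higher in OMVSSDC, and 12.2% had every OMVSSDC library below every ZJDC library, as these 5 genes did. The low-count genes had -0.64 ± 0.52 (mt-Nd3) and -0.85 ± 0.60 (mt-Nd4l), and neither was called.

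This comparison rests on the make-up of the OMVSSDC group. Without OMVSSDC replicate 3, 3296 of 11761 tested genes were called lower and 3243 higher in OMVSSDC. All 5 genes were called lower in that fit, at -2.23 for mt-Nd1, -2.49 for mt-Nd2, -2.15 for mt-Nd4, -2.34 for mt-Nd5 and -2.65 for mt-Nd6. With replicate 3 alone none was called, at -0.72, -0.61, -0.76, -0.46 and -0.44 in the same order. The call of mt-Nd4 was also lost when any other library was left out, with adjusted p of 0.0963 to 0.206.

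**Figure D2:**
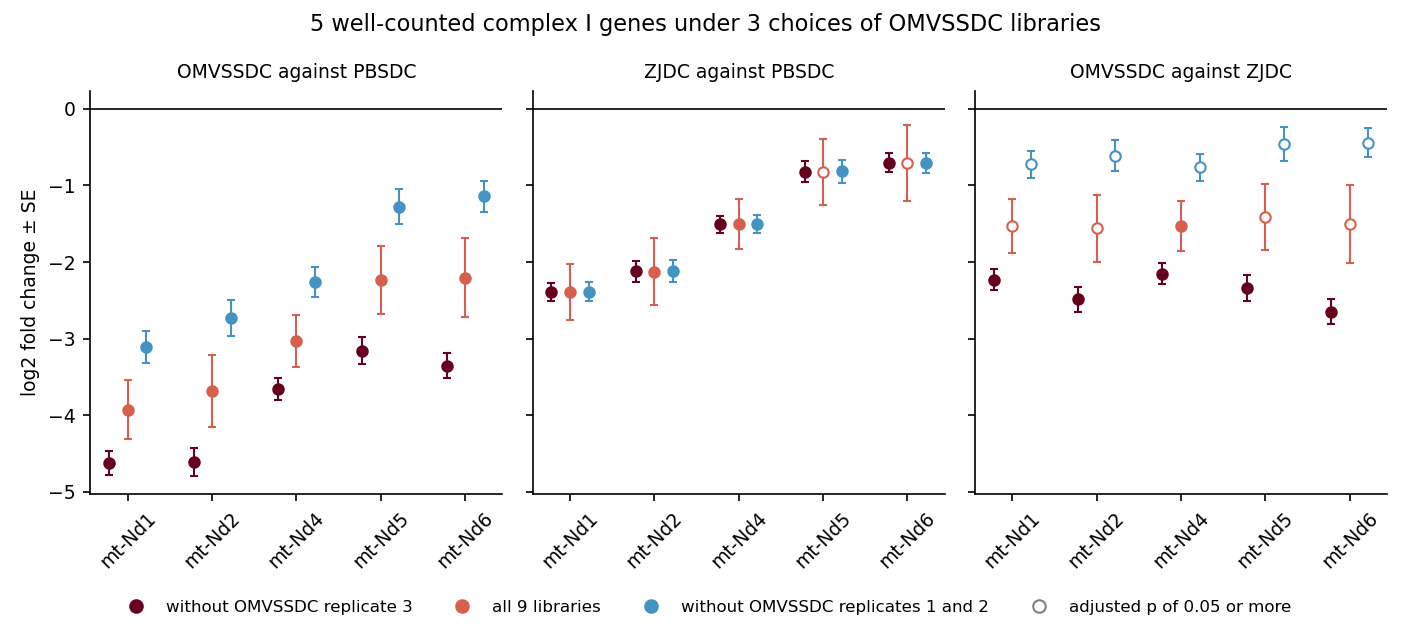
Log2 fold changes with their standard errors for the 5 well-counted genes in the 3 comparisons, fitted without OMVSSDC replicate 3, with all 9 libraries, and without OMVSSDC replicates 1 and 2; open points have an adjusted p of 0.05 or more. Against PBSDC all OMVSSDC points are filled, whereas in OMVSSDC against ZJDC no gene is called with replicate 3 alone and mt-Nd4 is the only call with all 9 libraries.

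The log2 fold changes of the 5 well-counted members spanned 1.72 in OMVSSDC against PBSDC and 1.69 in ZJDC against PBSDC, and 0.15 in OMVSSDC against ZJDC. The small span of OMVSSDC against ZJDC belongs to the mean of all 3 OMVSSDC libraries: it was 0.50 without OMVSSDC replicate 3 and 0.32 with replicate 3 alone, whereas OMVSSDC against PBSDC gave 1.46 and 1.97 with the same choices. Unequal differences from PBSDC also show in ratios of counts inside a library, which no scaling between libraries touches. There were 3.70, 3.58 and 4.70 counts of mt-Nd5 per count of mt-Nd1 in OMVSSDC and 3.99, 3.99 and 3.76 in ZJDC, against 1.35, 1.33 and 1.28 in PBSDC. All OMVSSDC and ZJDC libraries thus lay between 3.58 and 4.70 whatever the level, clear of PBSDC. As a share of the counts of all 7 genes, mt-Nd5 took 49.7%, 49.5% and 53.2% in OMVSSDC and 50.3%, 49.9% and 48.9% in ZJDC, against 31.6%, 32.4% and 30.7% in PBSDC, and mt-Nd1 took 11.3% to 13.8% in OMVSSDC and 12.5% to 13.0% in ZJDC, against 23.5% to 24.4% in PBSDC.

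Other ratios split the members into sets. For mt-Nd4 per mt-Nd1 the values were 1.31, 1.22 and 1.16 in OMVSSDC and 1.19, 1.20 and 1.19 in ZJDC, against 0.658, 0.619 and 0.662 in PBSDC. The range of mt-Nd2 per mt-Nd1 was narrower, at 1.07, 1.05 and 1.37 in OMVSSDC and 1.28, 1.29 and 1.24 in ZJDC, against 1.09, 1.01 and 1.07 in PBSDC, with ZJDC above PBSDC and OMVSSDC overlapping both. The opposite-strand gene went with its neighbour: mt-Nd6 per mt-Nd5 was 0.0984, 0.105 and 0.128 in OMVSSDC and 0.121, 0.128 and 0.133 in ZJDC, against 0.121, 0.106 and 0.123 in PBSDC. The sources used here do not give whether the counting used strand, and without strand, reads of mt-Nd6 and of transcripts opposite to it cannot be told apart. These ratios were picked after the levels were seen and carry no test.

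**Figure D3:**
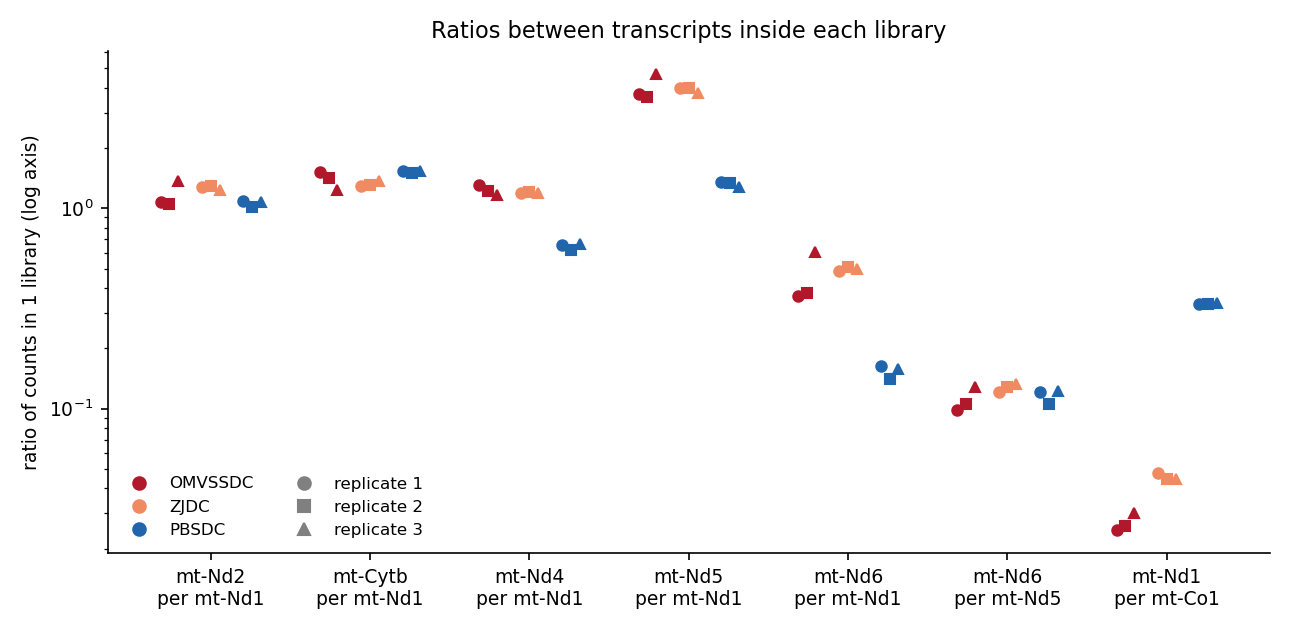
Ratios of counts between pairs of mitochondrial transcripts inside each of the 9 libraries (log axis); shapes are replicates and colours are groups. The ratios to mt-Nd1 of mt-Nd4, mt-Nd5 and mt-Nd6 are higher in OMVSSDC and ZJDC than in PBSDC, those of mt-Nd2 and mt-Cytb lie between 1.01 and 1.54 throughout, and mt-Nd1 per mt-Co1 is lower.

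Per gene length, the order of the members therefore changed between groups. In the deposited FPKM (fragments scaled to gene length and library size), OMVSSDC had mt-Nd5 first at 1386 ± 1089, then mt-Nd2 at 710.5 ± 557.9, mt-Nd1 at 621.5 ± 389.6, mt-Nd6 at 577.7 ± 531.1 and mt-Nd4 at 519.1 ± 297.7, and the ranges of all neighbours in this order overlapped across libraries. Within each OMVSSDC library mt-Nd5 was above mt-Nd2 (739.2 against 376.6, 775.1 against 400.2 and 2643 against 1355 FPKM). No single OMVSSDC library had the full order of the means. In replicates 1 and 2 mt-Nd1 (381.1 and 412.4 FPKM) came before mt-Nd2 (376.6 and 400.2), and mt-Nd4 (346.1 and 348.4) before mt-Nd6 (255.5 and 286.9). In replicate 3 mt-Nd6 (1191 FPKM) came before mt-Nd1 (1071 FPKM). ZJDC had mt-Nd5 at 3590 ± 559.7 FPKM above mt-Nd2 at 2042 ± 289, mt-Nd1 at 1744 ± 222.7, mt-Nd6 at 1598 ± 178.7 and mt-Nd4 at 1447 ± 179.9, and across libraries only mt-Nd5 stood clear of its neighbour. Within each ZJDC library this same order held. The closest pair was mt-Nd6 at 1759, 1628 and 1406 FPKM and mt-Nd4 at 1627, 1448 and 1267 FPKM. In PBSDC mt-Nd1 at 8773 ± 514.1 FPKM and mt-Nd2 at 8522 ± 672.6 overlapped at the top, above mt-Nd5 at 6072 ± 507.8, mt-Nd4 at 3937 ± 269.6 and mt-Nd6 at 2491 ± 268.5, which were each apart (SD, n = 3 in each group).

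The lowest places belonged to the low-count pair in every group. In OMVSSDC mt-Nd4l had 0.907 ± 0.206 and mt-Nd3 0.848 ± 0.663 FPKM, in ZJDC 1.65 ± 0.643 and 1.34 ± 0.221, and in PBSDC 5.25 ± 2.44 and 4.74 ± 0.85. The place of mt-Nd4 depends on how length is counted. Per 1000 windows with no exact nuclear match, rather than per full length, mt-Nd4 came first in PBSDC at 10810 ± 740.2 CPM, ahead of mt-Nd1 at 9786 ± 573.4 CPM. It was also first in ZJDC at 3973 ± 493.7 CPM, beside mt-Nd5 at 3796 ± 591.8 CPM. Their ranges overlapped across ZJDC libraries, but mt-Nd4 was slightly above mt-Nd5 within each (4465 against 4367, 3976 against 3836 and 3478 against 3185 CPM). In OMVSSDC mt-Nd4 had 950.1, 956.4 and 2369 CPM on this scale and mt-Nd5 had 781.7, 819.6 and 2795 CPM, so mt-Nd4 was above mt-Nd5 in replicates 1 and 2 and below it in replicate 3. The sources used here do not give how reads with several matches were counted.

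The complex I genes can be set beside the other protein genes of the same molecule. Cytochrome b of complex III, mt-Cytb, went with mt-Nd1: its level was 770.2 ± 424.6 CPM in OMVSSDC and 2200 ± 243.4 CPM in ZJDC, against 13400 ± 882 CPM in PBSDC, with log2 fold changes of -4.12 ± 0.33 and -2.61 ± 0.30 against PBSDC (adjusted p = 2.62e-06 and 5.53e-05), and -3.42 in OMVSSDC with replicate 3 alone. The gene mt-Co1, the catalytic subunit of complex IV and the most counted mitochondrial gene, was not called in either comparison. It averaged 20650 ± 11440 CPM in OMVSSDC and 36550 ± 4035 CPM in ZJDC, against 26380 ± 1704 CPM in PBSDC, with log2 fold changes of -0.35 ± 0.29 (adjusted p = 0.305) and 0.47 ± 0.29 (adjusted p = 0.192). In OMVSSDC against PBSDC its value was -0.91 (adjusted p = 0.000214) without OMVSSDC replicate 3 and 0.35 (adjusted p = 0.0566) without replicates 1 and 2, so its direction rests on the choice of libraries. In ZJDC against PBSDC mt-Co1 passed at 0.48 (adjusted p = 0.0028) when only those 2 groups were fitted. In that fit 4030 of 11398 tested genes were called higher.

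Within a library, mt-Nd1 per count of mt-Co1 was 0.0247, 0.026 and 0.0301 in OMVSSDC and 0.0475, 0.0446 and 0.0448 in ZJDC, against 0.332, 0.332 and 0.335 in PBSDC. The PBSDC libraries were thus alike to the second digit, with OMVSSDC and ZJDC at small fractions of them. The log2 fold changes of mt-Co2, mt-Atp6 and mt-Co3 were -1.76 ± 0.29, -1.74 ± 0.28 and -1.60 ± 0.12 in OMVSSDC against PBSDC, all called, and -1.06, -1.03 and -1.48 with OMVSSDC replicate 3 alone. In ZJDC against PBSDC they were -0.76 ± 0.28, -1.04 ± 0.27 and -1.04 ± 0.12, also called, though mt-Co2 (adjusted p = 0.042) lost its call when any PBSDC or ZJDC library was left out. These 3 genes have nuclear matches in 99.5% to 99.9% of their windows and averaged only 28.46 to 67.93 CPM in PBSDC. The complex V gene mt-Atp8, with 0 to 8 counts per library, was below the filter.

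**Figure D4:**
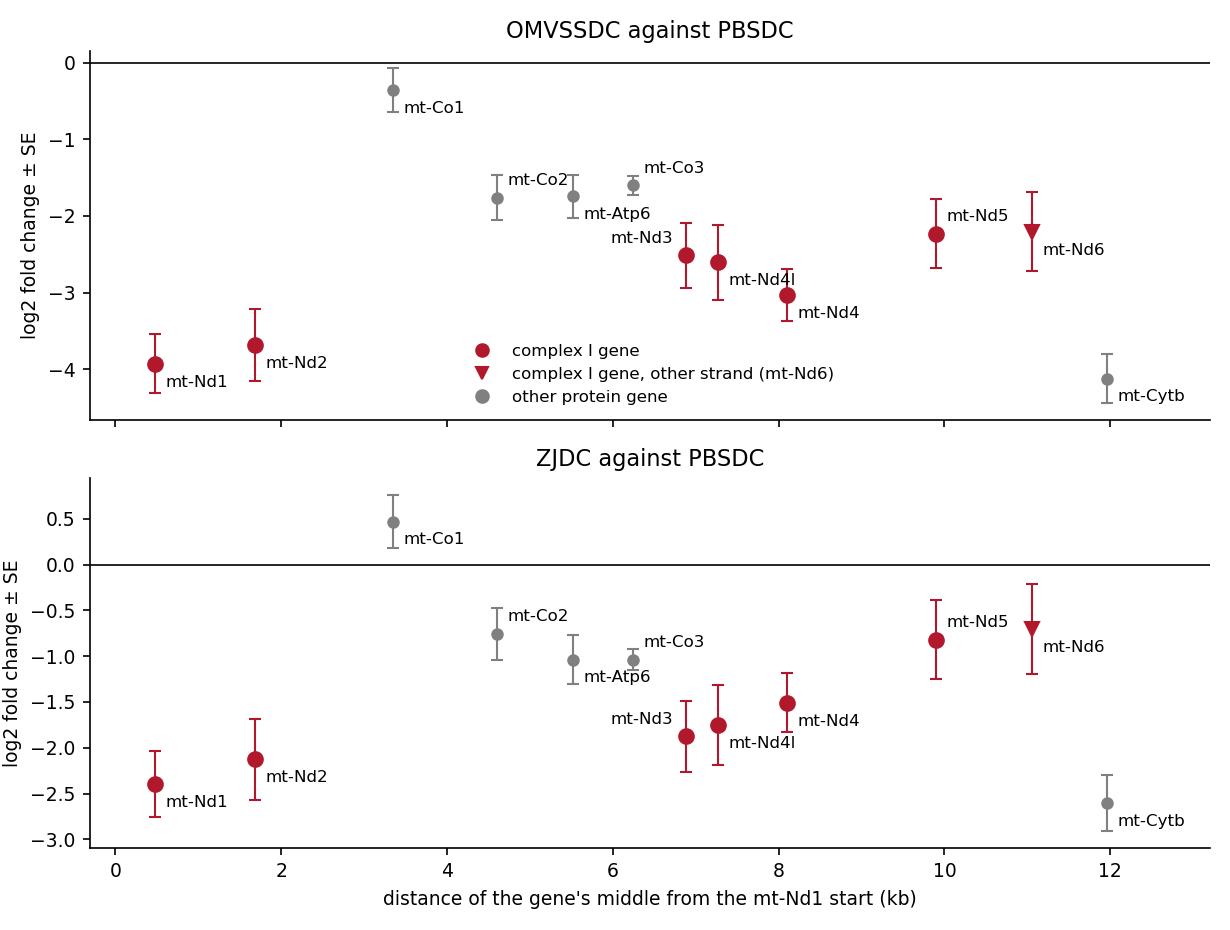
Log2 fold change with its standard error against the distance of each gene's middle from the mt-Nd1 start (kb), for OMVSSDC against PBSDC above and ZJDC against PBSDC below; red points are complex I genes, grey points are other protein genes and the triangle is the opposite-strand gene mt-Nd6. The values run lowest at mt-Nd1, mt-Nd2 and mt-Cytb and highest at mt-Co1, with mt-Nd5 and mt-Nd6 level with each other.

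Of 37 nuclear complex I subunit genes tested, 12 rose and 6 fell in OMVSSDC against PBSDC, where 33.4% of all tested genes rose and 30.2% fell, so the share that rose is near the background. The list had a median log2 fold change of 0.17 beside 0.05 over all tested genes and a lowest value of -1.02. The largest changes among genes averaging at least 5 CPM were those of Ndufa7, at 79.99 ± 28.62 CPM in OMVSSDC and 32.35 ± 3.08 CPM in PBSDC (log2 fold change 1.30 ± 0.24, adjusted p = 0.000846, and 0.53 with OMVSSDC replicate 3 alone), and Ndufa2 (1.11 ± 0.33, adjusted p = 0.0132). Both are accessory subunits. The largest falls were those of the iron-sulphur subunit gene Ndufs1, at 91.82 ± 8.47 CPM in OMVSSDC and 133.8 ± 5.02 CPM in PBSDC (-0.54 ± 0.08, adjusted p = 0.000126), and of the accessory subunit gene Ndufb10 (-0.37 ± 0.10, adjusted p = 0.00877, and -0.57 with replicate 3 alone).

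The balance of this list rests on the OMVSSDC libraries used. With replicates 1 and 2 alone 21 rose and 6 fell, where 4584 of 11761 tested genes rose and 4229 fell. With replicate 3 alone Ndufa2 stood at -0.09. In ZJDC against PBSDC, where 27.6% of all tested genes rose and 27.1% fell, 1 of the 37 rose and 8 fell, with a median of -0.17 beside 0.01 over all tested genes, and Ndufs1 was again lower (-0.56 ± 0.08, adjusted p = 0.000135). When ZJDC and PBSDC alone were fitted, 4 rose and 16 fell, where 4030 of 11398 tested genes rose and 3979 fell. In OMVSSDC against ZJDC none of the 37 was called by edgeR, and 16 had an unadjusted p under 0.05, all higher in OMVSSDC, beside 17.2% of all tested genes so in that direction and 14.5% in the other.

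Of 17 tested assembly factors, 7 rose and 3 fell in OMVSSDC against PBSDC, where 33.4% of all tested genes rose and 30.2% fell. The list had a median log2 fold change of 0.23 beside 0.05 over all tested genes. These factors join the subunits or fit their cofactors. Nubpl, which delivers iron-sulphur clusters to the complex, had 11.71 ± 4 CPM in OMVSSDC and 5.01 ± 0.828 CPM in PBSDC (1.22 ± 0.25, adjusted p = 0.00153, and 0.52 with OMVSSDC replicate 3 alone), and Foxred1 had 137 ± 35.25 CPM in OMVSSDC and 62.62 ± 2.26 CPM in PBSDC (1.13 ± 0.16, adjusted p = 0.000159, and 0.62 with replicate 3 alone). Acad9 fell (-0.55 ± 0.15, adjusted p = 0.00893, and -0.87 with replicate 3 alone) and so did Ndufaf4 (-0.43 ± 0.13, adjusted p = 0.0139), though Ndufaf4 lost its call without OMVSSDC replicates 1 and 2 (adjusted p = 0.137). The counts depended on the OMVSSDC libraries used. With replicates 1 and 2 alone 9 rose and 2 fell, where 4584 of 11761 tested genes rose and 4229 fell. In ZJDC against PBSDC 2 rose and 4 fell, with a median of 0.17, where 27.6% of all tested genes rose and 27.1% fell.

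**Figure D5:**
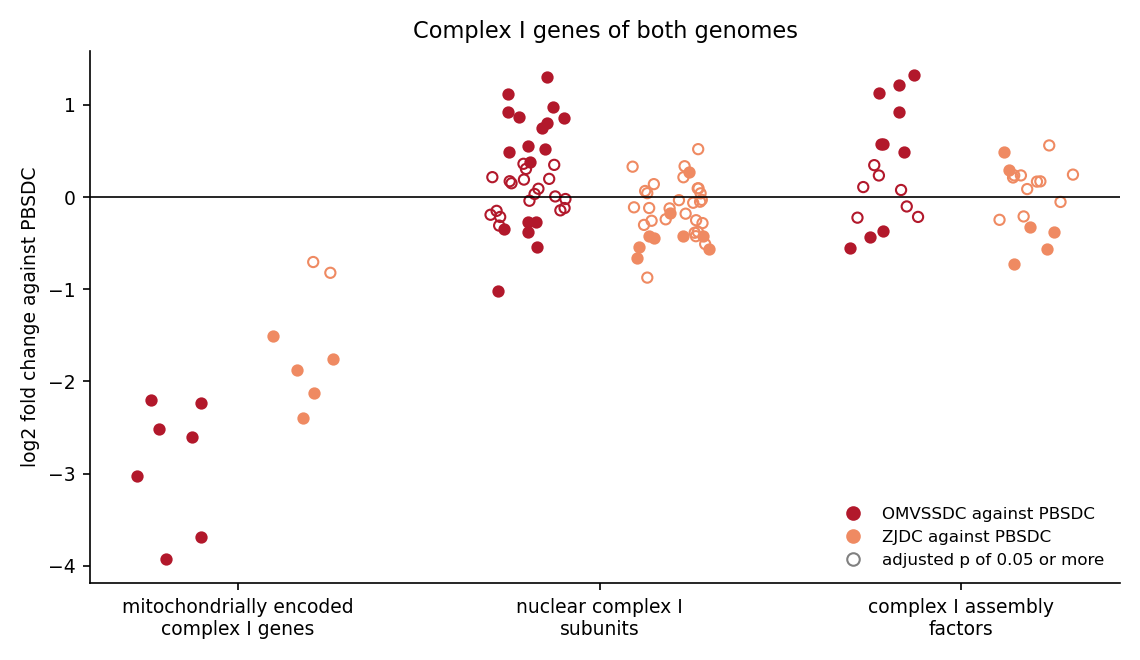
Log2 fold change against PBSDC of the 7 mitochondrially encoded complex I genes, 37 nuclear subunit genes and 17 assembly factor genes, for OMVSSDC and ZJDC; open circles have an adjusted p of 0.05 or more and points are spread sideways for sight only. Every nuclear gene lies between -1.02 and 1.33, on both sides of 0, and the 5 well-counted mitochondrial genes lie between -3.93 and -2.21 in OMVSSDC against PBSDC; the low-count genes mt-Nd3 and mt-Nd4l passed the filter only through PBSDC.

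Of 9 tested genes of mitochondrial transcription, 1 rose and 4 fell in OMVSSDC, and 0 rose and 4 fell in ZJDC, each against PBSDC. Over all tested genes 33.4% rose and 30.2% fell in OMVSSDC, and 27.6% rose and 27.1% fell in ZJDC. The 4 that fell in both, of which Tfam and Polrmt are named after their values were seen, were Tfam, which packs the DNA and opens its promoters, the polymerase gene Polrmt, the initiation factor Tfb2m and Mrpl12, a ribosomal protein that also binds the polymerase. Tfb2m had 18.51 ± 5.71 CPM in OMVSSDC and 24.17 ± 1.18 CPM in ZJDC, against 43.22 ± 3.66 CPM in PBSDC, with log2 fold changes of -1.23 ± 0.18 (adjusted p = 0.00016) and -0.84 ± 0.17 (adjusted p = 0.00214), and -0.79 in OMVSSDC with replicate 3 alone. Mrpl12 changed by -0.55 ± 0.08 and -0.61 ± 0.08 (adjusted p = 0.000172 and 0.000112). The rise of the elongation factor Tefm in OMVSSDC (0.37 ± 0.14, adjusted p = 0.0378) was lost without OMVSSDC replicates 1 and 2 (adjusted p = 0.309). The median log2 fold changes of the list were -0.01 in OMVSSDC and 0.07 in ZJDC.

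Of 19 tested genes of RNA processing and decay, 2 rose and 11 fell in OMVSSDC, and 1 rose and 7 fell in ZJDC, with medians of -0.33 and -0.24 against PBSDC, where those of all tested genes were 0.05 and 0.01. Over all tested genes 33.4% rose and 30.2% fell in OMVSSDC, and 27.6% rose and 27.1% fell in ZJDC. Elac2, which cuts the 3′ ends of transfer RNAs, had 43.41 ± 1.4 CPM in OMVSSDC and 47.22 ± 1.95 CPM in ZJDC, against 93.72 ± 6.45 CPM in PBSDC, with log2 fold changes of -1.11 ± 0.07 (adjusted p = 7.13e-07) and -0.99 ± 0.07 (adjusted p = 2.37e-06). Fastkd2, an RNA granule protein, changed by -1.03 ± 0.10 and -0.83 ± 0.09 (adjusted p = 7.79e-06 and 4.83e-05). Lrpprc, which stabilises mitochondrial messengers and was named here after its values were seen, changed by -0.82 ± 0.07 and -0.68 ± 0.07 (adjusted p = 3.31e-06 and 1.72e-05). Hsd17b10, a subunit of the enzyme that cuts the 5′ ends of transfer RNAs, rose by 0.73 ± 0.10 and 0.58 ± 0.10 (adjusted p = 9.16e-05 and 0.000591), and by 0.50 in OMVSSDC with replicate 3 alone. The rise of Fastkd1 in OMVSSDC (0.41 ± 0.11, adjusted p = 0.00703) was lost without replicates 1 and 2 (adjusted p = 0.297). With OMVSSDC replicates 1 and 2 alone 3 genes of the list rose and 12 fell, where 4584 of 11761 tested genes rose and 4229 fell.

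Of 9 tested genes of mitochondrial DNA maintenance, 4 rose and 3 fell in OMVSSDC, and 3 rose and 2 fell in ZJDC, each against PBSDC, with medians of 0.19 and -0.01. The shares over all tested genes were 33.4% and 30.2% in OMVSSDC, and 27.6% and 27.1% in ZJDC. The nucleoside kinases that supply the organelle with DNA precursors rose most. Tk2 had 49.12 ± 10.53 CPM in OMVSSDC and 34.47 ± 2.89 CPM in ZJDC, against 15.94 ± 1.41 CPM in PBSDC (log2 fold changes 1.62 ± 0.16 and 1.11 ± 0.16, adjusted p = 1.03e-05 and 0.000197, and 1.21 in OMVSSDC with replicate 3 alone). Dguok had 37.49 ± 0.622 CPM in OMVSSDC and 31.21 ± 0.843 CPM in ZJDC, against 14.02 ± 1.87 CPM in PBSDC (1.42 ± 0.10 and 1.15 ± 0.10, adjusted p = 1.2e-06 and 7.69e-06). The helicase gene Twnk and the single-strand binding protein gene Ssbp1 had -0.39 ± 0.12 and -0.37 ± 0.13 in OMVSSDC (adjusted p = 0.014 and 0.0272), both lost without replicates 1 and 2 (0.23 and 0.443).

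Of 16 genes of import and the mitochondrial membranes, 1 rose and 10 fell in OMVSSDC, and 1 rose and 12 fell in ZJDC, with medians of -0.34 and -0.42 against PBSDC. Beside this, 33.4% of all tested genes rose and 30.2% fell in OMVSSDC, and 27.6% rose and 27.1% fell in ZJDC. The gene of the import pore, Tomm40, had 40.37 ± 9.1 CPM in OMVSSDC and 34.58 ± 6.21 CPM in ZJDC, against 79.43 ± 1.63 CPM in PBSDC (log2 fold changes -0.98 ± 0.16 and -1.20 ± 0.17, adjusted p = 0.000476 and 0.000171). Prohibitin, Phb, changed by -0.74 ± 0.16 and -1.09 ± 0.17 (adjusted p = 0.00266 and 0.000321). The chaperone gene Hspa9 rose by 0.32 ± 0.06 and 0.40 ± 0.06 (adjusted p = 0.000781 and 0.000246). With OMVSSDC replicate 3 alone, Phb stood at -1.28 and Tomm40 at -1.41, beside -1.28 for mt-Nd5 and -1.14 for mt-Nd6 in the same fit.

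The profile of the 5 well-counted members over the 9 libraries was compared with every nuclear gene averaging at least 5 CPM, by the root mean square difference of log2 CPM centred on each gene's mean. Over 9614 genes the median difference was 1.44, and that of the members from their own mean profile was 0.12 (mt-Nd4) to 0.41 (mt-Nd1). The profile is the mean of these same 5 genes, which places them near it by construction. The nearest nuclear genes were Tnnt2 at 0.43, Selenop at 0.57, Mki67 at 0.59, Ckap2l at 0.59 and Ank2 at 0.61. They encode cardiac troponin T, a secreted selenium carrier, a proliferation marker, a spindle protein and an ankyrin. Tnnt2 had 2.24, 2.46 and 6.63 CPM in OMVSSDC and 6.15, 5.95 and 7.04 CPM in ZJDC, against 19.17, 20.85 and 18.18 CPM in PBSDC. For Mki67 the level was 530.5, 531 and 1051 CPM in OMVSSDC and 1342, 1271 and 1145 CPM in ZJDC, against 2664, 2666 and 2568 CPM in PBSDC. In both genes the group means run in the same order as for the members, with OMVSSDC replicate 3 above its fellows. Both were picked for likeness over these same libraries, so the shared order is no separate result. The likeness is a description of these 9 libraries.

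Tnnt2 belongs to a list of 20 markers of heart and brain, tissues rich in mitochondrial transcripts. The summed level of the list was 20.0 to 37.2 CPM in OMVSSDC and 36.5 to 44.0 CPM in ZJDC, against 54.9 to 58.8 CPM in PBSDC. Without Tnnt2, which was singled out by its likeness to the members, the other 19 summed to 17.4 to 30.5 CPM in OMVSSDC and 29.4 to 38.0 CPM in ZJDC, against 37.5 to 40.5 CPM in PBSDC. ZJDC then overlaps both other groups, and OMVSSDC stays below PBSDC. The atrial marker Myl7 was at 0 in every library and Nppa had at most 1 count. The cardiac myosin gene Myh6 was counted 1, 0 and 45 times in OMVSSDC and 110, 44 and 48 times in ZJDC, against 96, 83 and 54 in PBSDC, so ZJDC and PBSDC overlap for it. Actc1, cardiac actin, was counted 0, 0 and 21 times in OMVSSDC and 42, 16 and 36 times in ZJDC, against 29, 27 and 23 in PBSDC. Of the 20 markers, 10, 9 and 18 were detected in OMVSSDC replicates 1 to 3, beside 16 to 18 elsewhere. Camk2a, the most counted of those 19, gave 146, 183, 162 (OMVSSDC), 240, 171, 246 (ZJDC) and 280, 233, 206 (PBSDC). Tnni3 gave 25, 33, 44 (OMVSSDC), 58, 39, 43 (ZJDC) and 53, 39, 35 (PBSDC). Myl3 gave 8, 15, 38, then 32, 20, 15, then 23, 15, 14. Gfap gave 5, 6, 3, then 6, 0, 0, then 4, 3, 2. For Tnni3, Myl3 and Gfap, OMVSSDC overlaps PBSDC. The part of such transcripts in the levels of the complex I genes was not tested.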

How the data were processed

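RNA of 9 DC2.4 libraries was sequenced. The submitters' processing notes name fastp 0.22.0, HISAT2 2.1.0 and HTSeq 0.9.1. The sources used here do not give the genome build, the annotation, the use of strand or the handling of reads with several matches. The deposited table holds raw read counts per gene, per the file headers, and the authors' FPKM, which equal the count divided by the deposited gene length and the library total to within a relative difference of 1.9e-07. Libraries were grouped by their titles.

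Of 21959 genes, 11568 passed edgeR's filter (minimum count 10, minimum total 15). All 9 libraries were fitted in one model with TMM scaling, and groups were compared by edgeR's quasi-likelihood test (edgeR 4.0.16, R 4.3.3) with Benjamini-Hochberg adjustment over all tested genes and a threshold of 0.05. Standard errors come from the log2 fold change and F. Alternatives were other scalings and filters, DESeq2 1.42.0, limma-voom (limma 3.58.1), the replicate number as a block, removal of a length and GC trend, and libraries left out. Earlier results of these data led to leaving out OMVSSDC replicates 1 and 2 together. The alternatives on the nuclear genes, the span of the members under each alternative and the marker sum without Tnnt2 were added after seeing the data. Besides all 13 mitochondrial genes, the text names the 2 largest rises and falls per list among genes called in OMVSSDC against PBSDC with at least 5 CPM, and the 5 nuclear genes nearest in profile. The members and lists were chosen with earlier results of these data known. Sequences are those of GENCODE transcripts on GRCm38, matched by gene identifier.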

Additional observations from a re-analysis of the deposited data

How the results depend on the processing

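Against PBSDC, the 5 well-counted genes kept their direction under all 20 alternatives in both comparisons, and mt-Nd3 and mt-Nd4l did so in those that tested them. The log2 fold change in OMVSSDC ranged from -4.62 to -3.11 for mt-Nd1, -4.61 to -2.73 for mt-Nd2, -3.66 to -2.27 for mt-Nd4, -3.16 to -1.28 for mt-Nd5 and -3.35 to -1.14 for mt-Nd6, the ends set by which OMVSSDC libraries were kept. Since mt-Nd3 and mt-Nd4l passed the filter only through PBSDC, they are left out of the counts that follow. Of the 5 well-counted genes, 3 were called lower in ZJDC than in PBSDC, beside 3130 of all 11568 tested genes. All 5 were called lower with only the 2 groups compared (beside 3979 of 11398 genes) and without OMVSSDC replicate 3 (beside 4099 of 11761). The number was again 3 when a mean of at least 5 CPM was asked, beside 2759 of 9628 genes. The number lower in OMVSSDC than in ZJDC was 1 by edgeR. It was 0 with no filter, with a mean of at least 5 CPM, with the replicate block, with only the 2 groups compared and without OMVSSDC replicates 1 and 2 together. It was 3 by DESeq2, 3 by limma-voom, 2 after a trend with length and GC was removed, and 0 to 5 when single libraries were left out. Over all genes this comparison gave 226 calls by edgeR, 1643 by DESeq2, 561 with the trend removed, 355 without OMVSSDC replicates 1 and 2, and 0 to 6539 with 1 library left out, the highest without OMVSSDC replicate 3. It gave 0 with the replicate block and 0 with only the 2 groups compared, where 2955 and 2558 genes had an unadjusted p under 0.05, beside 3675 with all 9 libraries and no block. Same-numbered libraries did not deviate together (correlations of -0.388 to 0.089), so the replicate numbers were not taken as pairs.

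The value of mt-Co1 in OMVSSDC against PBSDC turned to 0.35 without OMVSSDC replicates 1 and 2 together, and that of Ndufa2 to -0.088. In ZJDC against PBSDC, Ndufa2 turned to 0.0156 with scaling by library totals alone, and ranged from -0.1468 to 0.0038 when single libraries were left out, the highest without ZJDC replicate 1. Scaling by library totals alone put the median of all genes in OMVSSDC against PBSDC at 0.18 in place of 0.05. The share of calls that were higher was then 62.4% in place of 52.5%, and 55.8% in place of 43.8% in OMVSSDC against ZJDC, where DESeq2's size factors in edgeR gave 36.3%. The causes of these shifts were not tested. Depth limits mt-Nd3, mt-Nd4l and mt-Atp8, whose lowest counts in a library were 1, 3 and 0.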
